A study of Mus musculus with 8 samples.

Results

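Histone genes of the replication-dependent clusters and the linker histone gene H1f0 were followed in RNA-seq of transferred CD4+ effector T cells. All genes whose symbol begins with Hist1h, Hist2h, Hist3h or Hist4h were taken, together with H1f0. This gave 69 genes of the 37411 in the count table: 6 of the H1 linker class, H1f0, 19 H2A, 18 H2B, 12 H3 and 13 H4 genes. At least 1 read was counted for 61 of them, 40 passed the filter on low counts and were tested, and the other 8 had no read in any library (Hist1h1t, Hist1h2af, Hist1h2bq, Hist1h2br, Hist2h2aa1, Hist2h2aa2, Hist2h3b and Hist2h3c1).

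The cells came from the small intestine lamina propria or the spleen of C57BL/6 Rag1-/- hosts, which lack T and B cells of their own, 6 weeks after transfer. The hosts were Asbt+/+ or Asbt-/-, Asbt (Slc10a2) being the transporter that takes up bile acids in the ileum. The transferred cells carried a congenic marker and the retroviral vector LMPd with a short hairpin, named in the sample titles as shMdr1, against the multidrug transporter Mdr1, or as shCD8, the control. Each of the 8 combinations of tissue, host and hairpin is 1 library from about 10000 sorted cells, and all 8, controls included, are of cells given a hairpin and transferred. The 4 libraries of 1 level stand as replicates over the other factors. The labels do not say which libraries came from separate animals, so the p-values rest on the spread among libraries, part of which may be technical.

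Replication-dependent histone genes supply the histones that package newly copied DNA, and their mRNAs accumulate in S phase. These mRNAs end in a conserved stem loop, bound by SLBP, in place of a poly(A) tail. H2A, H2B, H3 and H4 form the nucleosome core, and H1 histones bind the linker DNA between nucleosomes. H1f0 encodes H1.0, a linker histone that accumulates in cells that have stopped dividing, from a polyadenylated mRNA. The cDNA was made with SMART-Seq v4, which primes from poly(A) tails. Counts here therefore come mostly from histone RNA that carried a tail or an internal run of A, and how that bears on the levels was not tested.

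The 8 libraries held 1685225 to 2767105 counts, of which 1345 to 3655 fell on these genes. Genes with counts numbered 8456 in the shCD8 small intestine library of Asbt+/+ hosts and 11345 to 13184 in the others. That library also had counts for 37 of the 69 histone genes, against 51 to 56 elsewhere, and 9 of them were at 0 there while counted in the other 7 libraries (1648 of all genes did the same). Mitochondrial counts made up 18.3% in the shMdr1 small intestine library of Asbt+/+ hosts, 26.8% and 17.6% in the shMdr1 and shCD8 spleen libraries of Asbt-/- hosts, and 6.63% to 8.62% in the rest. Levels are CPM, counts per 1000000 counts of the TMM-scaled library size. Cells are named by host and tissue, so that Asbt-/- spleen means spleen cells of Asbt-/- hosts. Where values come in pairs, the library labelled shMdr1 is given first and that labelled shCD8 second.

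Abcb1a, the target of the Mdr1 hairpin, was measured at 14.8 and 8.28 CPM in Asbt+/+ small intestine, at 40.4 and 91.0 in Asbt-/- small intestine, at 18.7 and 40.8 in Asbt+/+ spleen and at 22.2 and 29.7 in Asbt-/- spleen. It was lower in the library labelled shMdr1 in 3 of 4 pairs and higher in the small intestine pair of Asbt+/+ hosts. Cd8a, the target of the control hairpin and a marker of CD8 T cells, was at 96.3 and 0 CPM in Asbt+/+ small intestine, at 27.7 and 22.7 in Asbt-/- small intestine, at 12.9 and 3.01 in Asbt+/+ spleen and at 0 in both libraries of Asbt-/- spleen. It was lower in the library labelled shCD8 in the 3 pairs with counts, and highest in the shMdr1 library of Asbt+/+ small intestine. The hairpin names below are those of the titles. The T cell identity list (12 genes) summed to 5898 to 10590 CPM in every library.

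Hist1h1c, Hist1h1e and H1f0 carry the pattern described below, and Hist1h1d and Hist1h1b carry it in the library labelled shMdr1 alone. The promoters of Hist1h1c, Hist1h1e, Hist1h1d and H1f0 are printed. Each shows the 150 bases before the RefSeq start on the gene's own strand, from the RefSeq table for GRCm38.p6. The counts were made on mm9, so these coordinates belong to the sequences only. Capitals mark the letters AAACACA (the H1 box), CCAAT and TATANA on either strand, where overlapping matches merge. Hist1h1c lies at chr13:23738657-23738806 (+), Hist1h1e at chr13:23622559-23622708 (-), Hist1h1d at chr13:23554882-23555031 (+) and H1f0 at chr15:79028062-79028211 (+).
Hist1h1c: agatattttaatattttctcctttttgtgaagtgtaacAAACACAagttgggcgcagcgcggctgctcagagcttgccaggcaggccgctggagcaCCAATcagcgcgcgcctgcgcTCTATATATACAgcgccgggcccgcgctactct
Hist1h1e: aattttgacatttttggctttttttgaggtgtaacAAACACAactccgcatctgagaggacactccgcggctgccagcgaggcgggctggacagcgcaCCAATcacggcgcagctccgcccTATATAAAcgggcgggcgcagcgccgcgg
Hist1h1d: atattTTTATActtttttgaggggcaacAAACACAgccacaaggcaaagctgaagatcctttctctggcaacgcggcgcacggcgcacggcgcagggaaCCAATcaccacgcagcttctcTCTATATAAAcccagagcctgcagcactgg
H1f0: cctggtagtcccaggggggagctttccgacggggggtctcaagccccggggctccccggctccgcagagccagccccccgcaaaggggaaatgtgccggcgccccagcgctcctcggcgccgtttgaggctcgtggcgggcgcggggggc
The H1 box starts 112, 115 and 122 bases before the start of Hist1h1c, Hist1h1e and Hist1h1d, and a CCAAT box 54, 52 and 51 bases before it. H1f0 holds none of the motifs in this window. Of the 6 H1 promoters, 5 hold AAACACA, against 3.53% of all 32851 promoters in the table. CCAAT occurs in all 6 H1, all 17 H2A and all 17 H2B windows with a sequence, in 8 of 10 H3 and 3 of 12 H4 windows, and in 24.5% of all promoters. TATANA occurs in all 6 H1 windows and in 13.35% of all. In 9 pairs, each of 1 H2A with 1 H2B gene, the windows overlap head to head, with starts 164 to 281 bases apart, so these windows are not independent.

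The stem loops are printed because they show where these transcripts would end without a tail. Capitals mark the stem and loop, and the gene names stand for the longest transcript of GENCODE M21.
Hist1h1c: aaGGCTCTTTTCAGAGCCac
Hist1h1e: aaGGCTCTTTTCAGAGCCac
Hist1h4c: aaGGCCCTTTTCAGGGCCac
Hist1h2bj: aaGGCTCTTTTCAGAGCCac
The letters CTTTTNAGNGCC occur in annotated transcripts of 42 of the 69 genes and of 157 others of the 55341 in the annotation (0.36% of all genes). Annotated transcripts run 840 bases past the stem loop in Hist1h1c, 1153 in Hist1h1e and 454 in Hist1h4c, but 23 in Hist1h2bj. The 22 genes with a transcript that runs at least 60 bases past the loop held 67.1% of the counts of all 69, and 53.8% without Hist1h1c. The 20 genes that end nearer to the loop held 14.1%, and the 27 without the letters, H1f0 among them, held 18.9%. Some of the 27 have a shorter transcript in GENCODE than in RefSeq, so missing letters need not mean a gene without a stem loop. Counts per kb of the longest transcript had medians of 140.0, 152.0 and 55.3 in these 3 sets. That length includes the bases past the loop that define the first set, so the medians cannot rank the first set against the second. Many members share sequence: a median of 84.2% of the 50-base words of the 8 genes without counts occur in another member, against 44.1% for those with counts. Values of single core histone genes are uncertain to that extent.

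Linker histone RNA was highest in small intestine cells of Asbt+/+ hosts. The 7 linker genes summed to 1580 and 944 CPM there, to 303 and 346 in Asbt-/- small intestine, to 406 and 292 in Asbt+/+ spleen and to 388 and 262 in Asbt-/- spleen. The small intestine to spleen ratio was 3.62 in Asbt+/+ hosts and 0.999 in Asbt-/- hosts (2 libraries against 2 in each). Without Hist1h1c, the most abundant, it was 2.96 and 0.423. The sum of the 62 core histone genes did not follow. It came to 766 and 427, 596 and 470, 753 and 552, and 602 and 382 CPM in the same order, a small intestine to spleen ratio of 0.986. By host, the core ratio was 0.914 in Asbt+/+ and 1.08 in Asbt-/- hosts. The classes differed within it: in Asbt+/+ hosts the ratio was 0.292 for H2A, 0.561 for H2B, 1.21 for H3 and 1.39 for H4. Linker counts were 2.06 and 2.21 times core counts in Asbt+/+ small intestine and 0.509 to 0.737 times in the other 6 libraries. The library at 2.21, labelled shCD8, had counts for 32 of the 62 core genes, against 45 to 50 elsewhere.

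**Figure D1:**
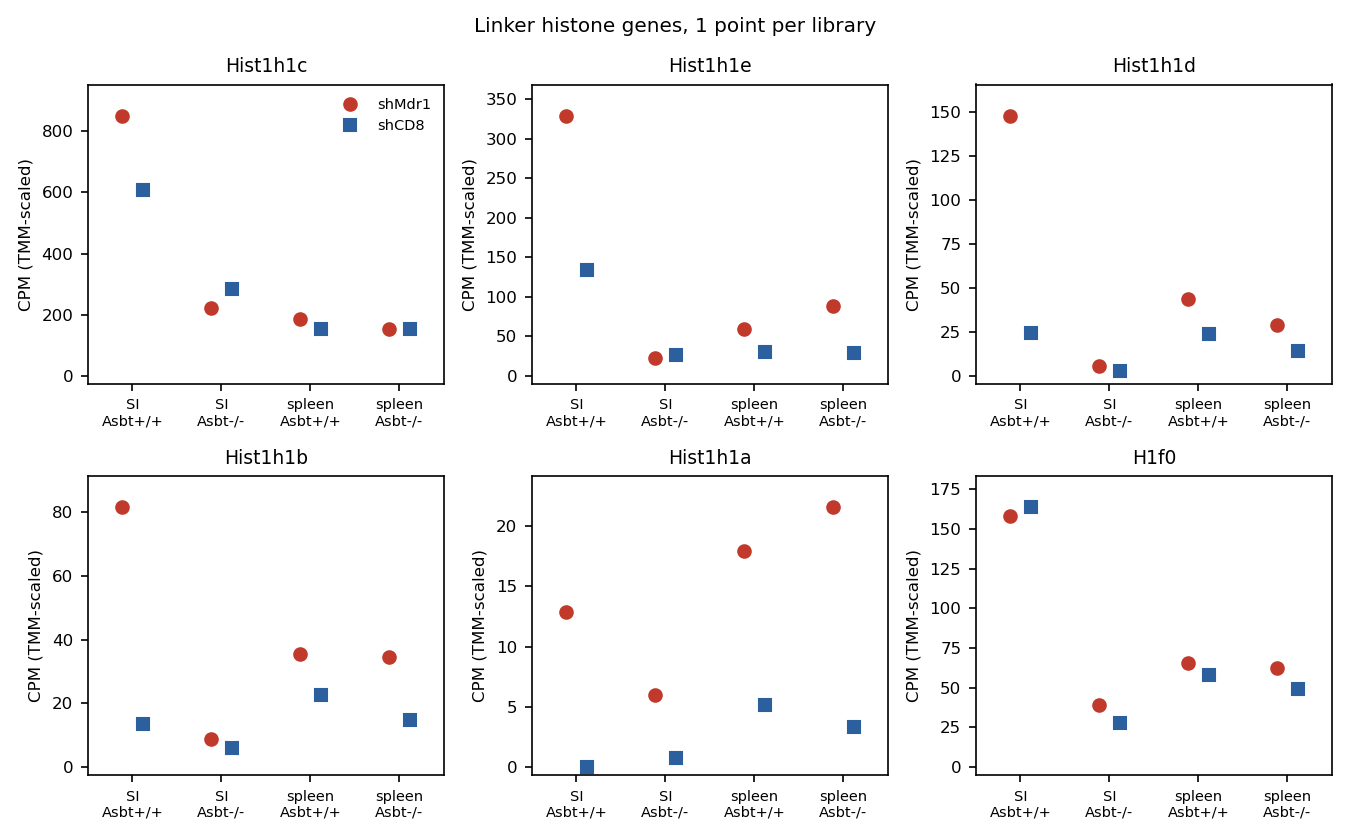
Level of 6 linker histone genes in CPM (vertical axes, each with its own scale) in small intestine (SI) and spleen of Asbt+/+ and Asbt-/- hosts, 1 point per library, circles for libraries labelled shMdr1 and squares for shCD8. Hist1h1c, Hist1h1e and H1f0 are highest in both SI libraries of Asbt+/+ hosts, while Hist1h1d and Hist1h1b are high in 1 of the 2.

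Hist1h1c encodes H1.2, a replication-dependent linker histone. It stood at 851 and 608.5 CPM in Asbt+/+ small intestine, at 221 and 283 in Asbt-/- small intestine, at 185 and 152 in Asbt+/+ spleen and at 153 and 153 in Asbt-/- spleen. All 4 small intestine libraries lay above all 4 spleen libraries (491 ± 294 against 161 ± 16.4 CPM, SD, n = 4 each). The tissue difference on the log2 scale was 1.42 ± 0.33 (SE), with an edgeR adjusted p of 0.110, which misses the threshold of 0.05. The same comparison gave adjusted p-values of 0.00554 by the DESeq2 Wald test, 0.0488 by limma-voom and 0.00199 by edgeR without the filter on low counts. Per kb of RefSeq length it averaged 449 CPM, against 115 for Hist1h1e, 46.8 for Hist1h1d, 34.2 for Hist1h1b, 34.0 for H1f0 and 11.3 for Hist1h1a. Those lengths are 725 bases for Hist1h1c, 782 for Hist1h1e and 2293 for H1f0. The longest GENCODE transcripts have 1560, 1930 and 2055, so the values per kb depend on the annotation.

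Hist1h1e encodes H1.4. It was measured at 329 and 134 CPM in Asbt+/+ small intestine, at 22.6 and 26.3 in Asbt-/- small intestine, at 58.7 and 29.7 in Asbt+/+ spleen and at 88.0 and 28.3 in Asbt-/- spleen. The 2 small intestine libraries of Asbt+/+ hosts were the highest and the 2 of Asbt-/- hosts the lowest of the 8. H1f0 was at 158 and 164 CPM, then 39.2 and 27.9, 65.4 and 58.0, and 62.2 and 49.3 in the same order. Here too the Asbt+/+ small intestine libraries were highest and the Asbt-/- small intestine libraries lowest.

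Hist1h1d (H1.3) was at 148 and 24.4 CPM in Asbt+/+ small intestine, 5.55 and 2.79 in Asbt-/- small intestine, 43.7 and 23.6 in Asbt+/+ spleen and 28.9 and 13.9 in Asbt-/- spleen. Hist1h1b (H1.5) was at 81.5 and 13.4, 8.72 and 5.99, 35.4 and 22.8, and 34.5 and 14.8 CPM in that order. For both genes the shMdr1 library stood far above its shCD8 partner in Asbt+/+ small intestine, and Asbt-/- small intestine was lowest. Hist1h1a (H1.1), described after its values were seen, was at 12.8 and 0, 5.94 and 0.798, 17.9 and 5.16, and 21.5 and 3.35 CPM. Its 0 allows up to 1.18 CPM (3 counts), and all 4 libraries labelled shMdr1 lay above all 4 labelled shCD8.

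Whether the tissue difference depended on the host was tested as an interaction, the difference in Asbt-/- hosts minus that in Asbt+/+ hosts. It was -3.32 ± 0.71 (log2, SE) for Hist1h1e, -3.35 ± 0.96 for Hist1h1d, -2.13 ± 0.53 for H1f0 and -1.38 ± 0.44 for Hist1h1c. None passed in edgeR (adjusted p = 0.837 for each), and 0% of the 10000 genes tested did. At an unadjusted p under 0.05 there were 5 members of 40 (12.5%), these 4 and Hist1h2bc (2.55 ± 0.97), against 594 of all tested genes. The DESeq2 Wald test called 1 member, Hist1h1e (adjusted p = 0.0156), and limma-voom none. DESeq2 also called other genes here where edgeR called none, with the number in the section on processing below. Leaving out the shMdr1 small intestine library of Asbt+/+ hosts leaves 1 library in that arm, so only the size of the interaction is given. It was then -3.12 for Hist1h1e, -2.43 for Hist1h1d and -2.31 for H1f0. For Hist1h2ae and Hist1h2bb, both at 0 in the library that remains, it was 8.88 and 8.05.

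Within Asbt+/+ hosts the tissue difference was 2.11 ± 0.32 for Hist1h1c (edgeR adjusted p = 0.148), 2.34 ± 0.50 for Hist1h1e (0.263), 1.39 ± 0.37 for H1f0 (0.308) and 1.01 ± 0.65 for Hist1h1d (0.625). In Asbt-/- hosts it was 0.73 ± 0.31 for Hist1h1c (0.903), -0.98 ± 0.50 for Hist1h1e (0.980), -0.74 ± 0.38 for H1f0 (0.980) and -2.35 ± 0.71 for Hist1h1d (0.584). The DESeq2 Wald test called Hist1h1c (6.07e-06) and Hist1h1e (0.00421) in Asbt+/+ hosts and no member in Asbt-/- hosts, and limma-voom called Hist1h1c (0.0495) in Asbt+/+ hosts. Both tools also called other genes in each host where edgeR called none, with numbers in the section on processing below. Over all 8 libraries the tissue difference was 0.75 ± 0.67 for Hist1h1e and 0.34 ± 0.44 for H1f0. Without the 2 small intestine libraries of Asbt+/+ hosts these turned to -1.02 and -0.74.

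**Figure D2:**
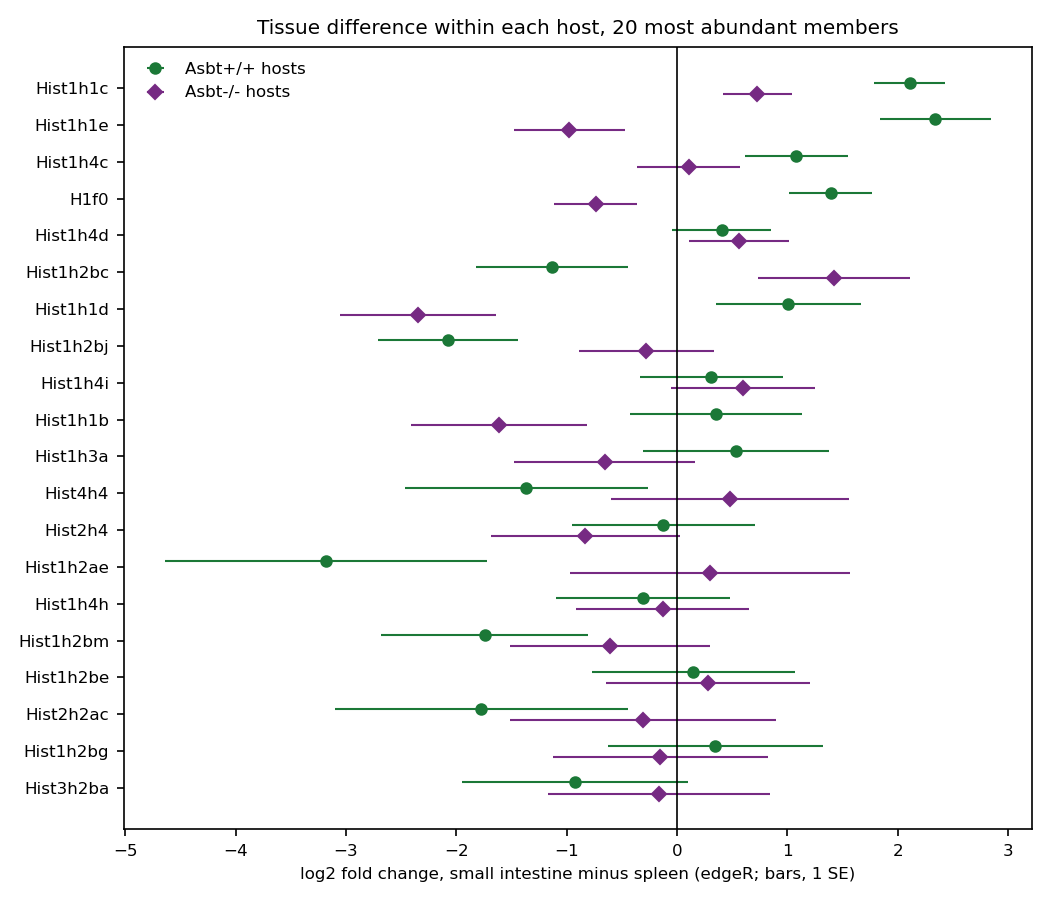
Small intestine minus spleen difference on the log2 scale (horizontal axis, bars 1 SE) for the 20 members with the highest mean CPM, in Asbt+/+ hosts (circles) and Asbt-/- hosts (diamonds), 2 libraries against 2 each. Hist1h1c lies above 0 in both hosts, whereas Hist1h1e and H1f0 lie above 0 in Asbt+/+ hosts and below 0 in Asbt-/- hosts.

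Over the whole comparison of tissues, edgeR called 62 of 10000 genes (0.62%) and 0 of the 40 members. One member (2.5%) had an unadjusted p under 0.05 (Hist1h1c), against 845 of all tested genes (8.45%). DESeq2 and limma-voom each called 1 (Hist1h1c), and edgeR without the filter called 1 (Hist1h1c). Over all genes, DESeq2 and edgeR without the filter also called more than the main fit, with numbers in the section on processing below. The members' median tissue difference was -0.46, against -0.17 over all tested genes, and 16 of 40 lay above 0 (40%, against 41.2% of all). Hist1h1c was the 1 member whose 4 small intestine libraries all lay above the spleen libraries (3.39% of all tested genes did so). Hist1h2ac was the 1 member for which they all lay below (4.68% of all), at 1.93, 0.394, 2.77 and 2.00 against 3.83 to 11.2 CPM. It was chosen after its values were seen.

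H2A and H2B proteins pair in the nucleosome, and their genes are described by their sums. Summed H2A stood at 44.3 and 10.6 CPM in Asbt+/+ small intestine, at 67.8 and 52.3 in Asbt-/- small intestine, at 114 and 73.9 in Asbt+/+ spleen and at 99.7 and 47.9 in Asbt-/- spleen. All 7 tested H2A genes had a tissue difference below 0, with a median of -1.31, but none had an unadjusted p under 0.05. The lowest value came from the shCD8 small intestine library of Asbt+/+ hosts, the library with fewest genes. There, 5 of the 9 members at 0 in that library alone were H2A genes, Hist1h2ae among them, which had 17 to 95 counts elsewhere.

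Summed H2B stood at 175 and 91.5 CPM in Asbt+/+ small intestine, 271 and 117 in Asbt-/- small intestine, 268 and 207 in Asbt+/+ spleen and 164 and 130 in Asbt-/- spleen. Hist1h2bj was at 21.8 and 8.28, 47.9 and 14.8, 77.0 and 42.6, and 36.9 and 28.3 CPM in that order. Its tissue difference was -1.18 ± 0.54 over all libraries (edgeR adjusted p = 0.592) and -2.08 ± 0.63 in Asbt+/+ hosts (0.371), where both spleen libraries lay above both small intestine libraries. Hist1h2bc was at 35.9 and 24.1, 122 and 33.1, 41.6 and 77.0, and 36.3 and 18.2 CPM. One library, shMdr1 Asbt-/- small intestine, stood apart for this gene.

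**Figure D3:**
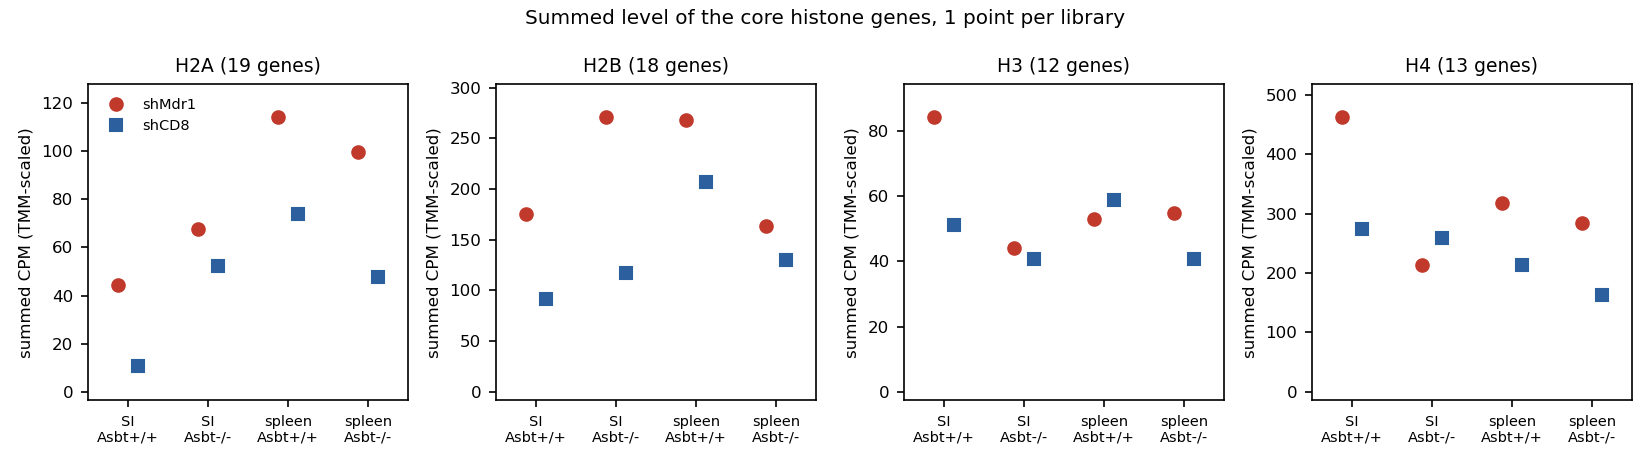
Summed CPM (vertical axes, each with its own scale) of the H2A, H2B, H3 and H4 genes in each library, circles for libraries labelled shMdr1 and squares for shCD8. H2A and H2B are higher in the library labelled shMdr1 in 4 of 4 pairs, H3 and H4 in 3 of 4, and the H2A sum is lowest in shCD8 Asbt+/+ small intestine at 10.6 CPM.

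For H3 and H4 genes, none of the 16 tested had an unadjusted p under 0.05 for the tissues. Summed H3 ranged from 40.7 to 84.1 CPM and summed H4 from 163 to 462, both highest in the shMdr1 small intestine library of Asbt+/+ hosts. Hist1h4c was at 211 and 82.8, 46.0 and 55.5, 74.1 and 57.2, and 57.9 and 40.7 CPM in the order above, highest in both small intestine libraries of Asbt+/+ hosts. Hist1h4d held 80.4 to 92.4 CPM in the 4 small intestine libraries and 36.9 to 86.8 in spleen. Per kb of RefSeq length these 2 genes averaged 208 and 192 CPM. Those lengths are 375 and 402 bases, against 820 and 1138 for the longest GENCODE transcripts. The remaining members among the 20 with the highest mean CPM (Hist1h4i, Hist1h3a, Hist4h4, Hist2h4, Hist1h2ae, Hist1h4h, Hist1h2bm, Hist1h2be, Hist2h2ac, Hist1h2bg and Hist3h2ba) had means of 12.3 to 27.8 CPM, and none passed in any of the comparisons made with edgeR.

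Libraries labelled shMdr1 held more core histone RNA than their partners labelled shCD8. The summed core level was higher in 4 of 4 pairs, and the 4 libraries labelled shMdr1 (679 ± 92.9 CPM, SD, n = 4) lay above the 4 labelled shCD8 (458 ± 72.7), a ratio of 1.48. On plain library totals, without TMM factors, the pairs kept that direction but the groups overlapped, at 708 and 448, 543 and 495, 804 and 602, and 537 and 379. The linker sum was higher in 3 of 4 pairs. Its ratio of 1.45 fell to 0.793 without the shMdr1 small intestine library of Asbt+/+ hosts and rose to 2.23 without its shCD8 partner, so it rests on those libraries.

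No member passed for the hairpin in edgeR (smallest adjusted p = 0.999), DESeq2 or limma-voom, and edgeR called 0% of all tested genes. DESeq2 called 3 genes, none of them members. At an unadjusted p under 0.05 edgeR had 4 of 40 members, all higher in libraries labelled shMdr1, against 299 of all genes (2.99%). They were Hist1h1a (3.11 ± 1.16 on the log2 scale), Hist3h2ba (1.83 ± 0.79), Hist1h1d (1.60 ± 0.69) and Hist1h1b (1.44 ± 0.62). Hist1h2bj differed by 1.14 ± 0.52 and Hist1h1e by 1.20 ± 0.59. Hist1h1c, in contrast, differed by 0.14 ± 0.31 and H1f0 by 0.20 ± 0.42.

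The members' difference for the hairpin had a median of 0.59, against 0.09 over all tested genes. It lay above 0 in 35 of 40 members (87.5%, against 55.1% of all tested genes) and in 52 of the 61 members with any count when no filter was applied (85.2%, against 55.5%). Without the 2 small intestine libraries of Asbt+/+ hosts it lay above 0 in 33 of 38 (86.8%, against 48.1%). Leaving out single libraries gave 30 to 35 members. The library labelled shMdr1 was higher in all 4 matched pairs for 15 members and lower in all 4 for 0, against 7.68% and 7.36% of all tested genes. The groups of 4 did not overlap for 5 members, all higher (Hist1h1a, Hist3h2ba, Hist1h2bp, Hist1h2an and Hist1h4b, 4 of them named for this after their values were seen), and for 0 members lower. The background is 1.45% higher and 1.34% lower. Markers of some other cells also differed between the hairpins. For the hairpin difference 7 of 7 tested neutrophil genes (median 1.28) and 7 of 9 erythroid genes (median 1.02) lay above 0, and 0 of 5 NK and innate lymphoid genes (median -1.41). None passed in edgeR, with 1, 0 and 2 at an unadjusted p under 0.05. The NK and innate lymphoid list summed to 68.0 and 394, 269 and 342, 175 and 394, and 247 and 410 CPM, lower in the library labelled shMdr1 in 4 of 4 pairs. The erythroid sum was higher in the library labelled shMdr1 in Asbt-/- spleen alone (41672 and 1111 CPM) and lower in the other pairs. In small intestine 3 of 9 erythroid genes lay above 0. The neutrophil sum was lower in the library labelled shMdr1 in Asbt-/- small intestine alone (10.7 and 40.7 CPM). Of the epithelial genes 4 of 8 lay above 0, and of the monocyte, macrophage and dendritic cell genes 3 of 7. The part of these markers in the members' hairpin difference was not tested. Members share libraries and, in part, sequence, so these counts are not counts of independent genes.

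**Figure D4:**
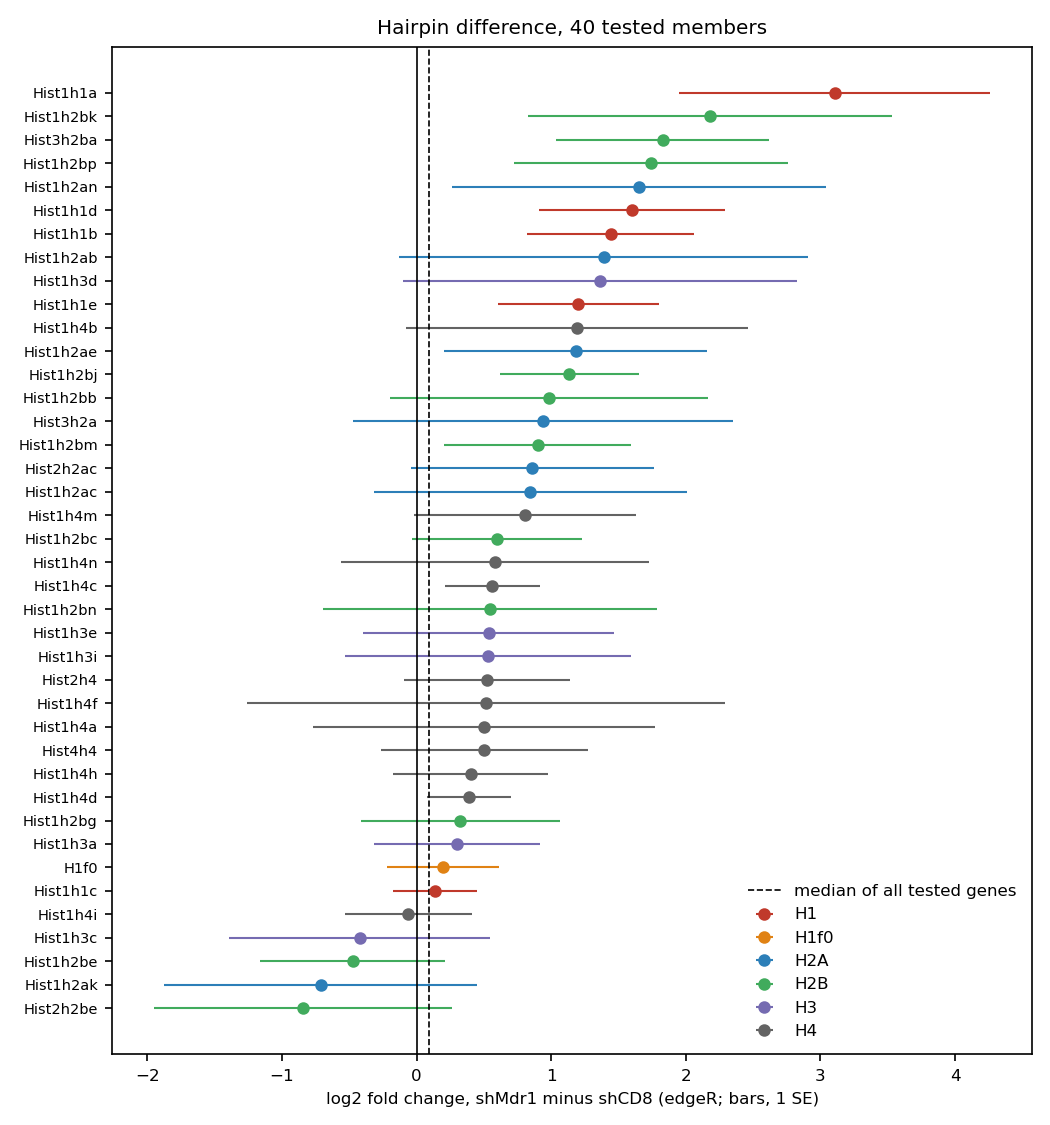
Difference between libraries labelled shMdr1 and shCD8 on the log2 scale (horizontal axis, bars 1 SE) for the 40 tested members, coloured by histone class and sorted by value, with a dashed line at the median of all tested genes (0.09). Of the 40 points 35 lie above 0, and the single-gene bars are wide.

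Hist3h2ba, an H2B gene outside the large cluster, was at 15.4 and 2.37, 22.6 and 5.19, 21.6 and 6.88, and 16.0 and 8.62 CPM in the order above. All 4 libraries labelled shMdr1 lay above all 4 labelled shCD8 (18.9 ± 3.73 against 5.76 ± 2.66, SD, n = 4 each). The hairpin difference was not shown to depend on the tissue. The interaction called 0 members in edgeR, 0 at an unadjusted p under 0.05, 0 by DESeq2 and 0 by limma-voom, and 0% of all tested genes.

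For the host, edgeR called 0 members and 0% of all tested genes. DESeq2 called 6 genes and no member, and limma-voom called none. The 4 members at an unadjusted p under 0.05 were all lower in Asbt-/- hosts, against 271 of all genes in either direction: Hist1h1d (-2.28 ± 0.76), H1f0 (-1.22 ± 0.45), Hist1h4c (-0.91 ± 0.36) and Hist1h1c (-0.83 ± 0.32). Hist1h1b differed by -1.30 ± 0.64 and Hist1h1e by -1.35 ± 0.67, both with adjusted p = 0.996. The 5 tested H1 genes and H1f0 all lay below 0, while 6 of 7 H2A genes lay above it. Summed H2A, however, was higher in Asbt-/- hosts in 2 of 4 pairs, with a ratio of 1.10. Those were the small intestine pairs, which include the shCD8 library of Asbt+/+ hosts, lowest in H2A at 10.6 CPM and with fewest genes. Of all 40 members 15 lay above 0 (37.5%, against 57.3% of all tested genes). Without the shCD8 small intestine library of Asbt+/+ hosts 8 of 40 did (20%, against 50.6%), and leaving out single libraries gave 8 to 17. The median of all 40 was -0.30, against 0.11 over all tested genes.

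The host difference of H1f0, Hist1h1c and Hist1h1e rested on small intestine, and that of Hist1h1d did so in part. Without the 2 small intestine libraries of Asbt+/+ hosts the difference was -0.16 for H1f0, -0.15 for Hist1h1c, -0.68 for Hist1h1d and 0.32 for Hist1h1e. Hist1h1d, Hist1h1b and H1f0 were lower in Asbt-/- hosts in all 4 matched pairs, those of spleen included. In all 4 matched pairs 8 of 40 members were lower in Asbt-/- hosts, against 5.19% of all tested genes. The groups of 4 did not overlap for 1 member that was lower (Hist1h3c, chosen after its values were seen, against 0.93% of all) and for 0 that were higher (1.78% of all). Hist1h3c stood at 7.06 and 24.8, 4.36 and 5.59, 9.16 and 5.59, and 2.46 and 2.87 CPM in the order above.

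Other genes of histone supply and the cell cycle were taken from lists. For the tissues, edgeR called 0 of 16 tested genes for histone mRNA processing and histone gene transcription, 0 of 19 histone chaperones and 0 of 8 replication-independent variants, and at an unadjusted p under 0.05 there were 1, 0 and 0. For hairpin, host and the interaction of tissue and host it called none of these either, with 1, 0 and 1 processing genes, 1, 1 and 1 chaperones and 1, 0 and 0 variants at that level. Slbp, whose product binds the stem loop, was at 14.1 and 30.4, 19.0 and 45.1, 35.4 and 25.8, and 28.3 and 26.8 CPM, with overlapping groups. The polyadenylated variant gene H3f3b, which supplies H3.3 outside S phase, held 1554 to 2626 CPM.

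The S phase and mitosis lists did not follow the linker genes. DNA replication genes summed to 947 and 901 CPM in Asbt+/+ small intestine, to 1575 and 1328 in Asbt-/- small intestine, to 1971 and 1402 in Asbt+/+ spleen and to 1048 and 980 in Asbt-/- spleen. Mitosis genes summed to 364 and 339, 937 and 569, 2105 and 1630, and 1000 and 893 CPM in that order. Small intestine cells of Asbt+/+ hosts, where linker RNA was highest, were thus lowest on both lists. Their shCD8 library, the one with fewest genes, had counts for 20 of 30 DNA replication genes and 14 of 25 mitosis genes. The others had counts for 27 to 29 and 19 to 25.

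**Figure D5:**
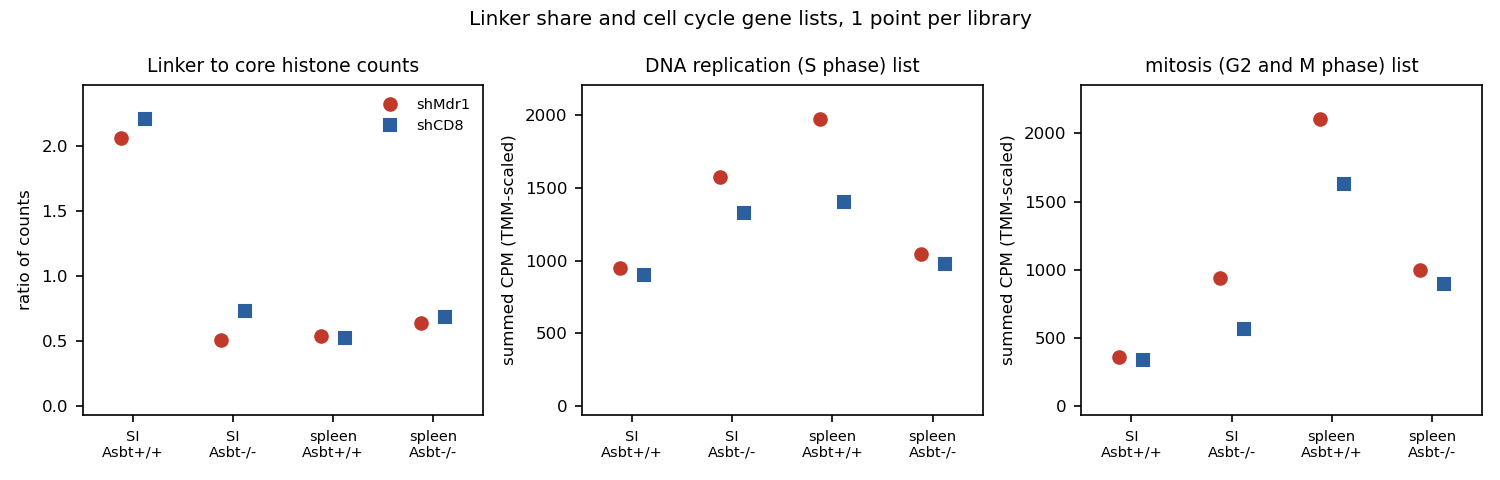
Ratio of linker to core histone counts (left), and summed CPM of the DNA replication list (middle) and the mitosis list (right), 1 point per library, circles for libraries labelled shMdr1 and squares for shCD8. The ratio is 2.06 and 2.21 in small intestine (SI) of Asbt+/+ hosts and at most 0.737 elsewhere, and both lists are lowest in the same 2 libraries.

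For the tissues 41.2% of all tested genes lay above 0. Of the lists, 20 of 29 tested DNA replication genes (median -0.35) and 23 of 24 mitosis genes (median -1.95) lay below it. None passed in edgeR, with 1 and 9 at an unadjusted p under 0.05. For the interaction of tissue and host, 27 of 29 and 24 of 24 lay above 0, against 59.5% of all tested genes. Their medians were 1.55 and 2.34, against 0.29 over all tested genes. At an unadjusted p under 0.05 there were 9 and 9 of them, and none passed when adjusted. Of the tested linker genes, 4 of 5 H1 genes and H1f0 lay below 0 there, and Hist1h1a was at 0.05. For the hairpin, 21 of 29 DNA replication and 17 of 24 mitosis genes lay above 0, with medians of 0.33 and 0.36, and none passed. Of all tested genes 55.1% lay above 0 for it. In bulk RNA, fewer cells in S phase and less RNA per cell cannot be told apart.

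Markers of other cells differed between libraries along all 3 factors. Erythroid markers summed to 89.9 and 128, 44.8 and 49.5, 2273 and 5174, and 41672 and 1111 CPM, and neutrophil markers to 193 and 111, 10.7 and 40.7, 7589 and 6735, and 3020 and 859 CPM. edgeR called 3 of 9 erythroid and 5 of 7 neutrophil genes lower in small intestine. Epithelial markers summed to 218 and 134, 45.2 and 47.1, 105 and 20.6, and 0 and 9.10 CPM, and edgeR called 1 of 8 higher in small intestine (Defa24, a Paneth cell defensin). Epcam was at 14.1 and 13.01 CPM in Asbt+/+ small intestine and at 0 in Asbt-/- small intestine, while Olfm4 and Lgr5 were at 0 in every library. Of the 14 epithelial genes 8 and 9 had counts in the former and 3 and 6 in the latter. The part of these markers in the linker and H2A results was not tested. The linker sums of both spleen libraries of Asbt-/- hosts, at 41672 and 1111 CPM of erythroid markers, were 388 and 262 CPM. Those libraries also differ in hairpin label, so this pair cannot tell hairpin and erythroid markers apart.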

How the data were processed

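The authors deposited raw read counts per gene for 8 libraries. SMART-Seq v4 and NEBNext Ultra II kits were used, without molecular identifiers, per the labels' protocols. The submitters' processing notes name TopHat, HTSeq, DESeq2 and mm9. The sources used here give no versions, annotation or strand, so overlapping or near-identical genes are uncertain.

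The filterByExpr function kept 10000 of 37411 genes, holding 99.5% of counts. TMM-scaled counts were fitted with edgeR's quasi-likelihood test (edgeR 4.0.16, R 4.3.3) on tissue, hairpin and host (4 residual degrees of freedom) or with 1 interaction added (3). P-values were adjusted by Benjamini-Hochberg over all tested genes at 0.05. The SE given is the size of the log2 fold change over the square root of its F statistic. DESeq2 1.42.0, limma 3.58.1, other filters, scalings and left-out libraries were alternatives. Of the tests, only that of tissue in the fit without an interaction was checked on simulated counts. The members and lists were chosen with earlier results of these data known. Named genes are the 20 with the highest mean CPM, H1f0, any member past the threshold and up to 4 called genes of each list. The hairpin follows the titles, since another label field names shMdr1 for all 8 libraries. Depth was 1685225 to 2767105 counts, and a count of 0 allows up to 3 counts, for counting error only.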

Additional observations from a re-analysis of the deposited data

Results flagged for a closer look

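In 6 of 60 groups of 4 libraries checked (the 20 members with the highest mean CPM and 10 sums over classes, in each tissue), 1 library stood apart from the other 3 by more than Dixon's 95% limit, which chance passes in about 1 of 20 groups. Hist1h1c was at 185 CPM in shMdr1 spleen of Asbt+/+ hosts, against 152 to 153 in the other spleen libraries. Hist1h2bc was at 122 CPM in shMdr1 small intestine of Asbt-/- hosts, against 24.1 to 35.9. The other 4 all concern shMdr1 small intestine of Asbt+/+ hosts: Hist1h1d at 148 CPM against 2.79 to 24.4, Hist1h1b at 81.5 against 5.99 to 13.4, Hist1h3a at 49.4 against 13.6 to 17.0 and Hist1h2bg at 21.2 against 9.51 to 11.2. That library had 18.3% mitochondrial counts and 218 CPM of epithelial markers. Their part in these values was not tested.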

How the results depend on the processing

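Numbers of genes called depended on the filter and the tool. Of 454 single-gene differences under the alternatives, 433 kept their direction and side of the threshold, 17 then passed it and 4 turned. The members' median changed sign in 2 of 14 alternatives for tissue in Asbt-/- hosts (-0.50 to 0.16), in 1 of 14 for tissue by host (-0.07 to 0.52) and in 4 of 15 for tissue by hairpin (-0.44 to 0.90), each with 1 or more libraries left out. With no filter on low counts, edgeR called 165 genes for tissue, 9 for hairpin, 14 for host, 161 for tissue in Asbt+/+ hosts, 92 for tissue in Asbt-/- hosts, 25 for tissue by host and 4 for tissue by hairpin, and 1, 2 and 1 members for tissue, tissue in Asbt+/+ hosts and tissue by host (Hist1h1c, Hist1h1c and Hist1h1e, and Hist1h1e). The DESeq2 Wald test called 257, 3, 6, 302, 106 and 33 genes in the first 6 of these comparisons and the same 1, 2 and 1 members. Limma-voom called 10 and 3 genes for tissue in Asbt+/+ and in Asbt-/- hosts, and Hist1h1c as 1 member each for tissue and for tissue in Asbt+/+ hosts. The cause was not tested.

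Without both small intestine libraries of Asbt+/+ hosts, 39 genes were called for tissue and 513 for tissue by hairpin, with 1 member (Hist1h2bc), on few residual degrees of freedom. The tissue difference turned to -1.02 for Hist1h1e and -0.74 for H1f0, and the host difference to 0.32 for Hist1h1e. With single libraries left out the tissue difference of H1f0 ran from -0.0028 (without shMdr1 spleen, Asbt+/+) to 0.71. Leaving out single libraries gave 11 (without shMdr1 small intestine, Asbt+/+) to 137 genes (without its shCD8 partner) for tissue, 0 to 4 for host, 0 to 2227 for tissue in Asbt+/+ hosts, 0 to 36 for tissue in Asbt-/- hosts, 0 to 1294 for tissue by host and 0 to 678 for tissue by hairpin. Members called ranged from 0 to 7 for tissue in Asbt+/+ hosts and 0 to 4 for tissue by host. The highest of these came without shMdr1 small intestine of Asbt+/+ hosts, where 1 library is left in that arm and taken to vary like the others, and the 678 without shCD8 small intestine of Asbt-/- hosts. The linker ratio of shMdr1 to shCD8 was 1.95 without Hist1h1c and 0.793 to 2.23 with single libraries left out. The labels give each combination 1 library and no numbers that pair libraries. A fit with libraries matched on the other 2 factors as a block called 54 genes for tissue, 0 for hairpin and 0 for host, and no member.

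Single-gene differences of the members outside the 20 with the highest mean CPM rest on few counts and are imprecise, and near-identical members cannot be told apart by short reads.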
